A study of Drosophila melanogaster with 3 samples.

Results

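The genes described here encode subunits of the proteasome of Drosophila melanogaster and their duplicated copies. The question is which of them carried the protein CG34224 at their start sites in embryos. They are the protein-coding genes of the Ensembl annotation BDGP6.54 whose symbols begin with Prosalpha, Prosbeta, Rpn or Rpt and a digit, 48 of 13968 protein-coding genes on the main chromosomes. Of the 48, 32 are called ubiquitous subunits here, the general genes without a paralogue suffix. Subunit genes with symbols of another form were not taken in, so the 32 are not a complete list of subunits. The other 16 are paralogues, with symbols that end in R or T, with or without a further digit. The data came from chromatin immunoprecipitation followed by sequencing (ChIP-seq) of whole embryos 0 to 24 hours old, from the transgenic strain CG34224-GFP, in which CG34224 is fused to eGFP, with an antibody against GFP. The 3 libraries are biological replicates 1, 2 and 3 of that single group and share its 1 strain. No untagged or input sample was analysed here, so no comparison between conditions was made. Each library mixes every embryonic tissue and stage, and a tagged transgene stands in for the untagged protein.

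The proteasome is the large protease that degrades proteins tagged with ubiquitin. Its core is a barrel of stacked rings, with outer rings of alpha subunits that gate the entrance and inner rings of beta subunits, some of which cut proteins. A regulatory particle caps the barrel. Its base holds a ring of ATPases (Rpt subunits) that unfold substrates, with scaffold and ubiquitin-receptor subunits, and its lid removes ubiquitin chains. Many of the paralogues are known in flies as genes expressed in the male germ line, several of them in place of the general subunit. The peak lists hold no expression values, so the name testis paralogue could not be checked here, nor could the embryonic stage.

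A gene was called bound when the summit of a thresholded peak lay within 500 bp of one of its annotated start sites. The authors kept peaks by irreproducible discovery rate (IDR), a measure of how well a peak's rank repeats, and the lowest kept score was 830 in every thresholded list. On the main chromosomes the authors' conservative list held 4393 peaks, and the lists of replicates 1, 2 and 3 held 2667, 2841 and 4145 peaks. No read counts accompany the peaks, so sequencing depth cannot be given. Only list length is given, and whether it follows depth was not tested. The deposited descriptions derive the conservative list from the alignments of the 3 libraries and do not state which pair of replicates was compared for it. The authors' signal of a peak was used only for its rank and percentile within its own list, since its scale is not stated.

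In the conservative list, 26 of the 48 genes were bound (54.2%), beside 29.7% of all protein-coding genes. The 26 were divided unevenly. Of the ubiquitous subunits 24 of 32 were bound (75%), and of the paralogues 2 of 16 (12.5%). Within the ubiquitous subunits, the count was 10 of 14 for the core, 8 of 10 for the base and 6 of 8 for the lid, so no part of the complex stood without bound genes. In replicates 1, 2 and 3 the ubiquitous subunits had 17, 19 and 24 bound genes, and the paralogues had 2 in each. Of all protein-coding genes, 21.1% were bound in replicate 1, and replicates 2 and 3 had 22.3% and 28.6%. Over the 3 replicate lists the mean share was 62.5% ± 11.3 for ubiquitous subunits and 12.5% for paralogues with the same 2 genes each time, and 23.9% for the protein-coding genes outside the family (SD, n = 3). The lowest ubiquitous share of a replicate, 53.1%, was above the paralogue share. The core had a mean of 61.9% ± 10.9, the base 73.3% ± 15.3 and the lid 50% ± 21.7 (SD, n = 3), and the replicate shares of the 3 parts overlapped, from 50% to 71.4% in the core, 60% to 90% in the base and 37.5% to 75% in the lid. Genes are not replicates and there is 1 group, so the shares are descriptions and no test was run on them.

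**Figure D1:**
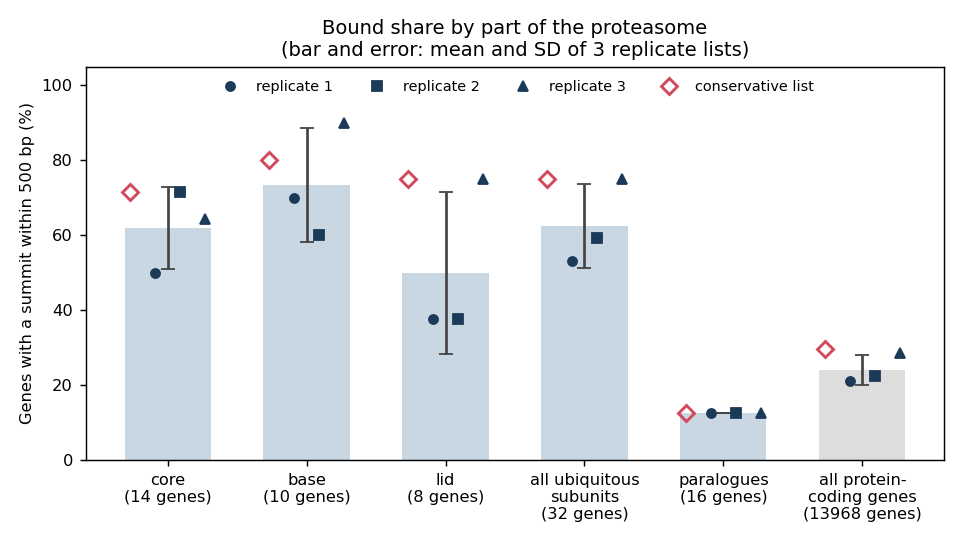
Share of genes with a summit within 500 bp of a start site, in percent, for each part of the proteasome, the paralogues and all protein-coding genes. Bars and error bars are the mean and SD of the 3 replicate lists, filled symbols are the single replicates and open diamonds the conservative list. The ubiquitous parts have conservative shares of 71.4% to 80%, the paralogues have 12.5% in each list, and all genes have 29.7% in the conservative list.

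The promoter sequence at the summit differed from member to member. The summit base with 50 bases to either side is printed for the strongest bound gene of the alpha ring, base and lid that may be shown, for the bound paralogues, and for Rpt5, the strongest such gene with the DNA replication-related element (DRE), the site TATCGATA of the factor DREF. For Prosbeta7, the strongest such beta subunit, the summit lies in a 5′ untranslated region and 30 bases at its marked letters are given. The sequences come from the RefSeq genome of Release 6 (dm6), read 5′ to 3′ on the strand of the gene, with capitals for the letters found. Capitals mark GGTCACAC (Motif 1 core) in Prosalpha4, that core with TGACNNNGC (the antioxidant response element, to which the factor cnc binds) overlapping it in Prosbeta7, ATCGAT (the centre of the DRE) in Rpn12, TATAAA (the TATA box) and ATCGAT in Rpt3R and the whole DRE in Rpt5, on either strand. Rpn10 and Prosbeta2R2 held none of the letters searched. Rpt5 and Prosbeta2R2 were added after their values were seen. The windows are chrX:16276216-16276316 (+) for Prosalpha4, chr3R:5358250-5358279 (-) for Prosbeta7, chr3L:21536949-21537049 (+) for Rpn10, chr3R:23752772-23752872 (+) for Rpt5, chr3L:16582931-16583031 (+) for Rpn12, chr3R:9756366-9756466 (-) for Rpt3R and chr3R:5219616-5219716 (-) for Prosbeta2R2.
Prosalpha4: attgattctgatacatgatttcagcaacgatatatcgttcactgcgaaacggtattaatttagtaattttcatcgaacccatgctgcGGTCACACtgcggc
Prosbeta7: tgtaaaacgGTGTGACCAAGCtaatagtgg
Rpn10: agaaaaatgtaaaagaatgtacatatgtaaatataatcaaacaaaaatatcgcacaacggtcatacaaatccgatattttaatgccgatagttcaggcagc
Rpt5: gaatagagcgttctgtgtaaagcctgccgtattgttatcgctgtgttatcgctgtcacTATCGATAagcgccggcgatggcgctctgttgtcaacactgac
Rpn12: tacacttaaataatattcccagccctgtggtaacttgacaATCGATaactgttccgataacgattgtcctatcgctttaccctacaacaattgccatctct
Rpt3R: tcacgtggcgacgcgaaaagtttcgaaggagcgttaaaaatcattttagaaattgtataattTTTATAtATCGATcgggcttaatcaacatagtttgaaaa
Prosbeta2R2: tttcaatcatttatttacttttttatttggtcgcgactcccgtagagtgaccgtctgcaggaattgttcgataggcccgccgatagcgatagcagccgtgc

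In the alpha ring, which controls entry to the core, 5 of 7 genes were bound. Prosalpha7 (FBgn0023175, chr2R:9846636-9847836) carried one of the strongest peaks of the genome, with its summit 60 bp upstream of its start site. Its signal was 1417 in the conservative list, and 372, 356 and 695 in replicates 1, 2 and 3. That put it at rank 13 of the conservative list and at ranks 12, 16 and 10 of the replicate lists. The other alpha genes were far lower. Prosalpha3 had a conservative signal of 249.6, and 74.2, 66.8 and 112 in the 3 replicates. Prosalpha4 had a conservative signal of 224.7, and 64.0, 52.6 and 96.8 in the 3 replicates. Both were found in every list, near the middle of the conservative list at percentiles 55.8 and 49.6, and lower in the replicates. Prosalpha6 was found in 2 replicates and Prosalpha5 in 1. Prosalpha5 had the weakest conservative peak of all bound members, with a signal of 146 at percentile 20.1.

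In the beta ring, which holds the cutting sites, 5 of 7 genes were bound, among them the genes of all 3 catalytic subunits. Prosbeta1 (FBgn0010590, chr2R:16013805-16014787), the caspase-like subunit, had a conservative signal of 737, and 171, 207 and 336 in replicates 1, 2 and 3. Prosbeta2 (FBgn0023174), the trypsin-like subunit, had 425 in the conservative list, and 127, 129 and 206 in the replicates. Prosbeta5, the chymotrypsin-like subunit, had 365 in the conservative list, and 92.6, 107 and 185.7 in the replicates. All 3 lay at percentiles of 52.0 to 94.9 in the 4 lists. Prosbeta7 (FBgn0250746), a subunit with no cutting site, had signals of 448 in the conservative list and 119, 131 and 226 in the replicates. It lay between Prosbeta1 and Prosbeta2 in every list but that of replicate 1, where it was below both. Prosbeta6 was found in the conservative list and in 2 replicates. The median percentile of bound genes in the conservative list was 78.9 for the beta ring and 49.6 for the alpha ring, with 5 genes in each and with Prosalpha7 above every beta gene.

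**Figure D2:**
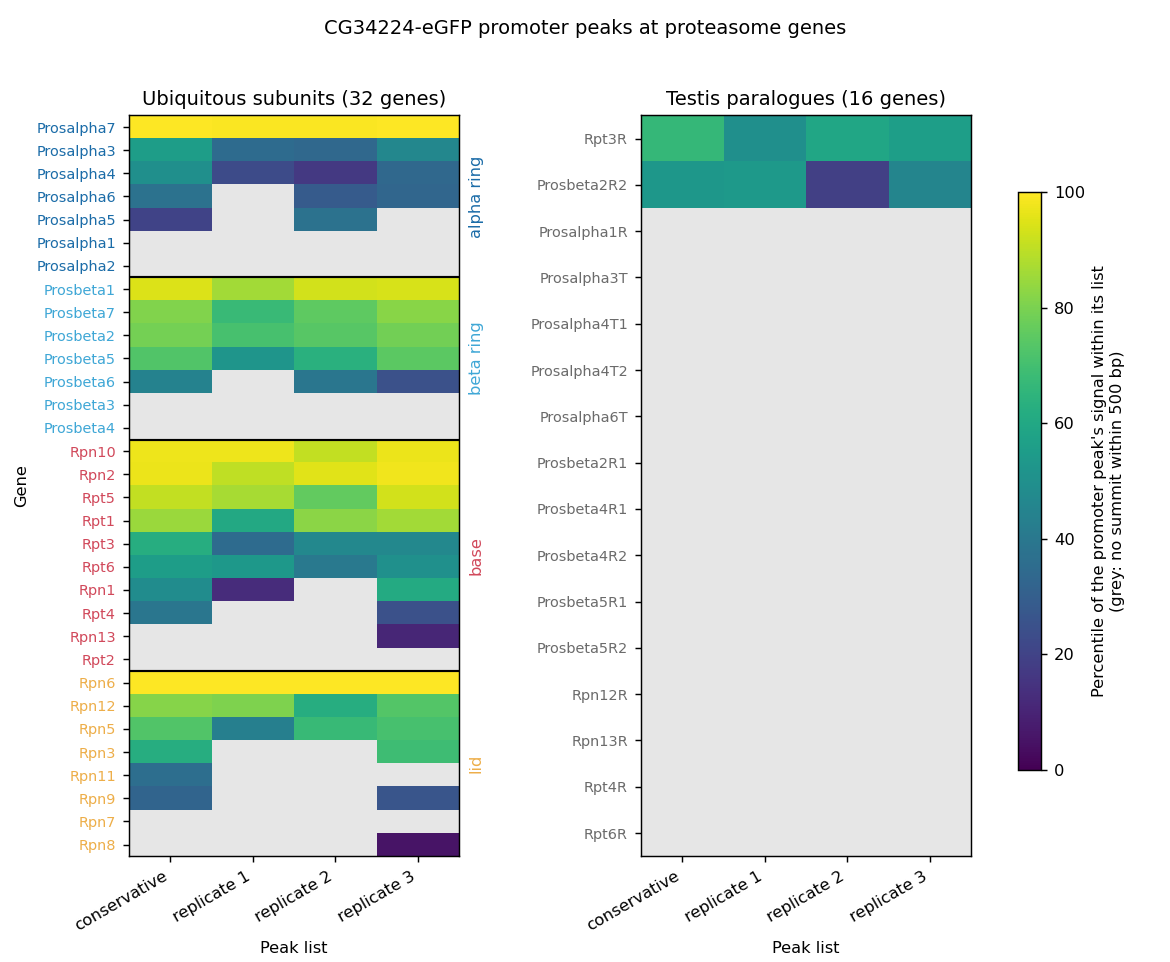
Percentile of each gene's promoter peak by signal within its list, for the conservative list and replicates 1, 2 and 3 (columns), with 1 gene per line and grey where no summit lay within 500 bp. The left panel holds the 32 ubiquitous subunits by alpha ring, beta ring, base and lid, the right panel the 16 paralogues. Rpn6 and Prosalpha7 are above percentile 99 in all 4 lists, and 14 paralogues are grey throughout.

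In the base, 8 of 10 genes were bound. Its strongest peaks lay at the scaffold and receptor subunits. Rpn10 (FBgn0015283, chr3L:21537000-21538582), a receptor for ubiquitin chains, had a conservative signal of 885, and 277, 191 and 400 in replicates 1, 2 and 3. Rpn2 (FBgn0028692, chr3R:29153524-29157255), a large scaffold subunit, had 853 in the conservative list, and 193, 231 and 435 in the replicates. Both stayed above percentile 90 in all 4 lists. Among the ATPase genes, Rpt1, Rpt3, Rpt4, Rpt5 and Rpt6 were bound and Rpt2 was not. Rpt5 (FBgn0028684, chr3R:23752876-23754623) had a conservative signal of 621 and 175, 133 and 325 in the replicates. It was the strongest of them in every list but that of replicate 2, where Rpt1 had 154.5. In yeast the tail of Rpt5 helps to open the gate of the core. The other bound ATPase genes had conservative signals from 193 to 505, and Rpt4, the lowest, was found in replicate 3 and not in replicates 1 and 2. Rpn1, a scaffold subunit that also binds ubiquitin, had a conservative signal of 222.4 and was found in 2 replicates.

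In the lid, 6 of 8 genes were bound. Rpn6 (FBgn0028689, chr2R:14750166-14752910), which in yeast clamps the lid to the core, had the strongest peak of the whole family. Its signal was 1776 in the conservative list, and 480, 509 and 799 in replicates 1, 2 and 3. It ranked 4 in the conservative list and 3, 3 and 4 in the replicate lists, so only a few peaks in the genome were stronger in any of the 4 lists. The conservative summit lay in an intron, 102 bp upstream of the nearer of the 2 annotated start sites of Rpn6. It lay more than 500 bp from the 5′ end of the gene record. With that end as the only start site of each gene, Rpn6 was not bound and the lid count was 5. Rpn12 (FBgn0028693), which in yeast is the last subunit to join the lid, had signals of 459 in the conservative list and 152, 104.8 and 179 in the replicates. Rpn5 (FBgn0028690), a structural subunit, had 365 in the conservative list and 82.3, 114 and 171 in the replicates. These 3 genes were bound in all replicates, and no other lid gene was. Rpn3 and Rpn9 were found in replicate 3 alone. Rpn11, the enzyme that removes ubiquitin chains, had a conservative peak with a signal of 184 and no thresholded peak in a replicate, where its highest ranked scores were 577, 92 and 731. Replicates 1 and 2 had 3 bound lid genes each and replicate 3, with the longest list, had 6, which include Rpn8 and not Rpn11.

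The 8 ubiquitous genes without a conservative peak were Prosalpha1, Prosalpha2, Prosbeta3, Prosbeta4, Rpt2, Rpn7, Rpn8 and Rpn13, spread over all parts of the complex. The authors' ranked lists, which also hold peaks below the kept score, showed weaker peaks at most of them. Prosalpha2 had a highest ranked score of 189, 146 and 593 in replicates 1, 2 and 3. Rpt2, an ATPase of the base, had 137, 67 and 407. Rpn13, a ubiquitin receptor, had 233, 391 and 981, and the last is a thresholded peak of replicate 3, 284 bp upstream of a start site. CtsL1, on the opposite strand, starts 271 bp upstream of a start site of Rpn13. To which of these genes that peak belongs cannot be told from the lists. Prosalpha2, Rpt2 and Rpn13 had a peak in every ranked list, each with its highest score in replicate 3. Rpn8, the partner of Rpn11 in the lid, had scores of 317 and 833 in replicates 1 and 3 and none in replicate 2. Prosbeta3 stayed at 75, 35 and 76, Prosbeta4 at 54 and 116 with none in replicate 3, and Rpn7 at 95 and 70 with none in replicate 2. These 3 genes had no score above 116 in any replicate. Prosalpha1 had no ranked summit within 500 bp in any replicate. Every 32-base word within 500 bp of its start site occurs elsewhere in the genome (100%), as it does at its copy Prosalpha1R, so the values of this pair are uncertain. How the authors placed reads on repeated sequence is not known, and its part in the missing peaks was not tested. At every other member at most 10.5% of such words were repeated. Near the distance limit, the conservative summit of Rpn11 lay 441 bp from a start site and counted as bound, and those nearest to Prosbeta4 and Rpn8 lay 665 and 710 bp away and did not.

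The ranked lists also differed between the classes. Of the 32 ubiquitous subunits, 31, 29 and 30 had a ranked summit within 500 bp in replicates 1, 2 and 3. Of the 16 paralogues, 2, 2 and 5 did. Over all protein-coding genes the shares were 61.6%, 59.6% and 69.8%. A ranked summit was missing from all 3 lists at 1 ubiquitous subunit, Prosalpha1, and at 11 paralogues, and at 22.3% of all protein-coding genes. Ranked lists run down to scores of 26 to 35, and how many of their weakest entries are binding was not tested.

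**Figure D3:**
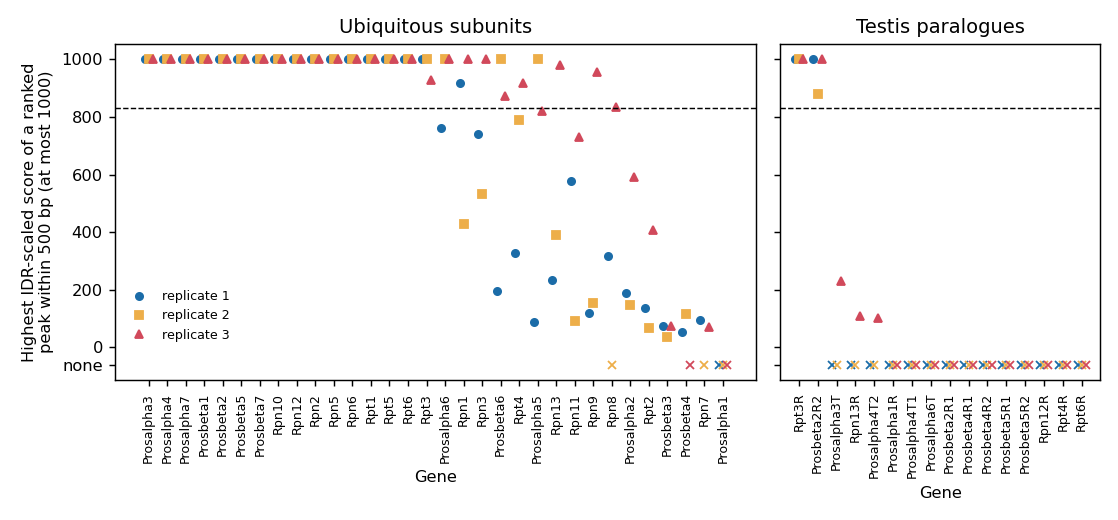
Highest IDR-scaled score (at most 1000) of a ranked peak whose summit lay 500 bp or less from a start site, for every member in replicates 1, 2 and 3, with ubiquitous subunits in the left panel and paralogues in the right. The dashed line is the lowest kept score, 830, and crosses mark members with no such peak. Rpn13 (981) and Rpn8 (833) cross the line in replicate 3, and Prosalpha3T (232), Rpn13R (110) and Prosalpha4T2 (102) lie far below it.

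The 2 bound paralogues were Rpt3R, a copy of the ATPase Rpt3, and Prosbeta2R2, a copy of the trypsin-like subunit. Rpt3R (FBgn0037742, chr3R:9754735-9756510) had a conservative signal of 309, and 89.1, 99.4 and 128 in replicates 1, 2 and 3. Prosbeta2R2 (FBgn0037296, chr3R:5217751-5219528) had 236.7 in the conservative list, and 94.6, 54.7 and 110.5 in the replicates. Both were middling peaks, at percentiles 66.5 and 52.8 of the conservative list. All 3 replicate lists held 16 of 32 ubiquitous subunits, these 2 paralogues and 17.3% of all protein-coding genes. Found in no replicate list were 7 ubiquitous subunits, the other 14 paralogues and 68.5% of all protein-coding genes. Weak ranked peaks were present at Prosalpha3T, Prosalpha4T2 and Rpn13R in replicate 3, with scores of 232, 102 and 110, and at none of the 14 in replicates 1 and 2.

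Set beside the gene each was copied from, the paralogues formed 16 pairs. In 10 pairs the ubiquitous gene was bound and its paralogue was not, in 2 both were bound, in 4 neither was, and no pair had the paralogue alone. The 2 pairs with both bound were Rpt3 with Rpt3R, at conservative signals of 283 and 309, and Prosbeta2 with Prosbeta2R2, at 425 and 236.7. The largest contrast by signal was at Rpn12, with 459, against Rpn12R, unbound in every list. Among ubiquitous genes, 9 of 12 with a paralogue were bound and 15 of 20 without one, which is 75% in either set.

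The arrangement of the promoters differed between the classes. A head-to-head gene, on the opposite strand with its start site within 500 bp upstream, was present at 21 of 32 ubiquitous subunits (65.6%), at 3 of 16 paralogues and at 27.3% of all protein-coding genes. Both bound paralogues have one. The start site of Prosbeta2R2 lies 129 bp from one of CG1116. Rpt3R has 2 annotated start sites, and the shortest head-to-head distance from either to a start site of Alg12 is 277 bp. At both paralogues the conservative summit was nearer to a start site of the facing gene than to one of the paralogue. The third, Prosalpha1R, faces CG12822 at 400 bp and lies in the repeated sequence described above. None of the 13 paralogues without a head-to-head gene was bound. Among ubiquitous subunits the order was the other way: 14 of 21 head-to-head genes were bound (66.7%), against 10 of 11 single ones (90.9%). Over all protein-coding genes, 2122 of 3815 head-to-head genes (55.6%) and 2031 of 10153 single ones were bound.

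When each conservative peak was given only to the protein-coding gene with the nearest start site, a choice made after seeing the data, 20 ubiquitous subunits and 0 paralogues remained bound, and 22.9% of all protein-coding genes. The 4 ubiquitous genes lost were Rpt4 (peak nearer to mldr), Rpt5 (RanBP3), Prosbeta1 (Rrp42) and Rpn5 (Hat1). Binding at the start site of either of 2 facing genes cannot be told apart from these lists. Prosalpha4, 90 bp from kat80, and Prosbeta5, 94 bp from dgo, kept their peaks, as did Rpn6, 250 bp from ave, and Prosalpha7, 225 bp from CG1671.

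**Figure D4:**
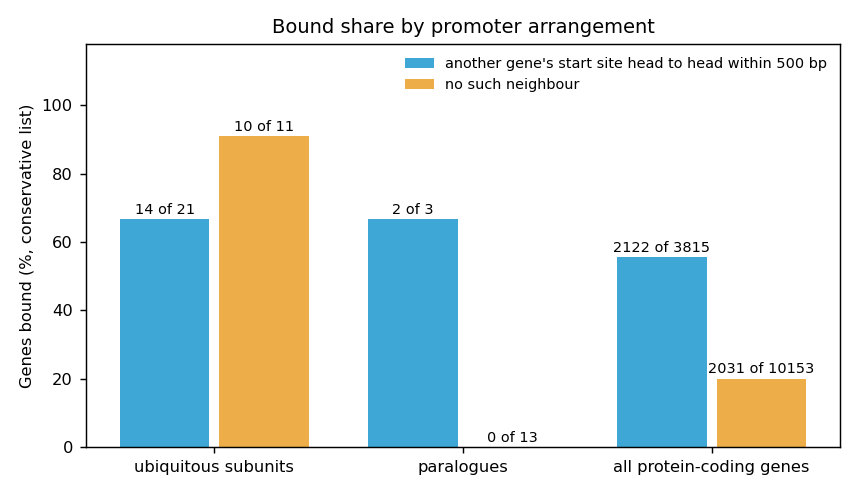
Share of genes bound in the conservative list, in percent, for genes with and without a head-to-head neighbour within 500 bp, in ubiquitous subunits, paralogues and all protein-coding genes. The head-to-head shares are 66.7%, 66.7% and 55.6%, and for single promoters 10 of 11 (90.9%), 0 of 13 and 2031 of 10153 genes are bound.

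By the rule every bound summit lies within 500 bp of a start site, and most members' summits lay well inside that limit. The median summit position from the nearest start site was -50.5 bp (upstream) for the 24 bound ubiquitous subunits, beside -57 bp for all bound protein-coding genes. Of the 26 bound members, 22 had a summit within 150 bp of the start site, beside 3109 of 4153 bound protein-coding genes. The summits furthest upstream were those of Rpn11 (-441 bp), Rpn5 (-335 bp) and Rpt3 (-297 bp), and the furthest downstream were those of Rpn9 (149 bp) and Rpt3R (94 bp). By the annotation, 20 summits lay outside the member's own gene, 4 in its 5′ untranslated region and 2 in an intron, at Rpn6 and Rpt3R. A further, weaker conservative summit was present at Prosbeta2 (26 bp), Rpn9 (-75 bp) and Rpt3 (-26 bp). The median peak width was 512 bp for members and 536 bp for all peaks of the conservative list.

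Ubiquitous subunits were bound at ordinary strength for a promoter with a few exceptions. Their conservative percentiles had a median of 67.7 and ran from 20.1 to 99.9, and all bound protein-coding genes had a median of 64.5. The replicates ordered the members alike. Over the 18 members bound in all 3 replicates, Spearman's rho of the percentiles was 0.860 for replicates 1 and 2, 0.905 for replicates 1 and 3 and 0.988 for replicates 2 and 3, and Pearson's r was 0.844, 0.905 and 0.966. These correlations are across genes of the same 3 libraries and carry no test. For the 16 ubiquitous subunits among them, the span between the highest and lowest replicate percentile had a median of 12.6. It was widest at Rpn5, at 27.8, with percentiles of 43.3, 67.3 and 71.1. Prosbeta2R2 spanned more than any of them, with percentiles of 53.6, 19.0 and 45.5.

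**Figure D5:**
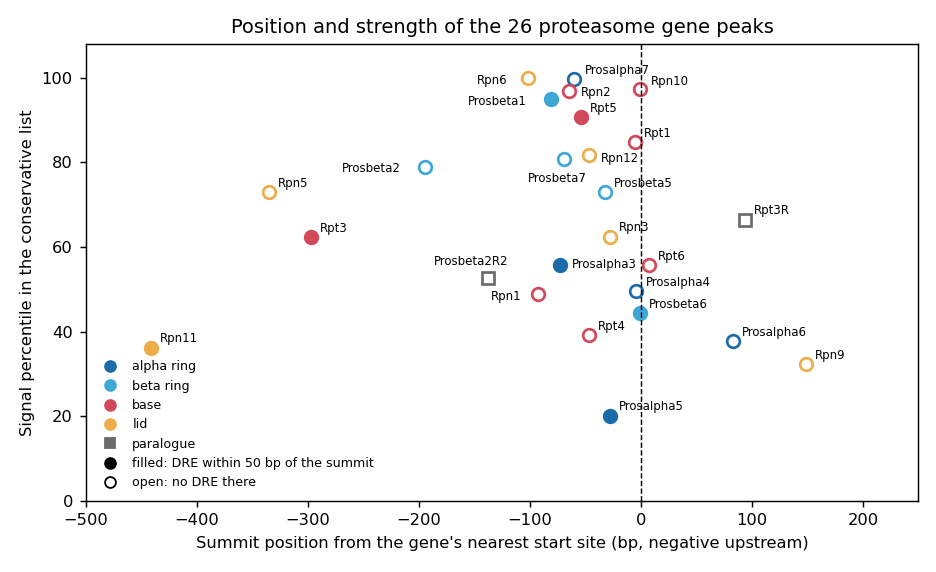
Summit position from the nearest start site (bp, negative upstream) against the percentile of signal in the conservative list, for the 26 bound members. Colours mark the alpha ring, beta ring, base and lid, squares the 2 paralogues, and filled symbols a DRE within 50 bp of the summit. The 5 strongest are within 102 bp of the start site, and 1 of those 5, Prosbeta1, is filled.

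The DRE was present at the summits of 7 of 26 members (26.9%), beside 591 of 3624 conservative promoter peaks (16.3%). The 7 were Prosalpha3, Prosalpha5, Prosbeta1, Prosbeta6, Rpt3, Rpt5 and Rpn11. Its 6-base centre ATCGAT, which each of these windows also holds, was present at 13 members (50%) and at 32.8% of all promoter peaks. The strongest peaks, at Rpn6, Prosalpha7 and Rpn10, held neither, and that of Rpn2 held ATCGAT without a full DRE. The median conservative percentile was 55.8 for the 7 members with a DRE and 73.0 for the 19 without. Over all promoter peaks it ran the other way, with 78.1 for the 591 peaks with a DRE and 48.8 for the 3033 without. Members were counted by the strongest peak of each gene, while all promoter peaks include weaker further ones. The shares and medians of members and of all promoter peaks are thus not like for like, here and for the other motifs. A match is a run of letters, and whether DREF binds there was not tested.

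The promoters themselves differed by class. From 250 bases before to 50 after the start of the gene record, a DRE was present in 12 of 32 ubiquitous subunits (37.5%), 0 of 16 paralogues and 9.36% of all protein-coding genes. By part it was 6 of 14 in the core, 2 of 10 in the base and 4 of 8 in the lid. Some bound summits, among them that of Rpn6, lay outside the stretch searched. Of promoters with a DRE, all 6 in the core were bound and 10 of 12 in the whole ubiquitous set. Over all protein-coding genes, 1062 of 1307 promoters with a DRE were bound. In the ubiquitous set 10 of 24 bound and 2 of 8 unbound promoters had one, the 2 being Rpn7 and Rpn13. Over all protein-coding genes it was 25.6% of bound and 2.50% of unbound promoters. The 6-base ATCGAT was present in 17 ubiquitous promoters (53.1%), in 1 paralogue promoter, that of Prosbeta2R1, and in 23.3% of all.

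Other promoter letters were rare at the summits of members. GGTCACAC was found at 2 members, Prosalpha4 and Prosbeta7 (7.69%, beside 3.78% of all promoter peaks). TGACNNNGC was found at 2, Prosbeta7 and Rpt6 (7.69%, beside 3.67%). TATAAA was found at 3, Rpn6, Rpn9 and Rpt3R (11.5%, beside 11.4%), and CAGCTG, an E-box of core promoters, at Rpn9 alone (3.85%, beside 11.5%). No member window held GAGAGAG, which 4.22% of all promoter peaks held. With 26 windows, 1 member is 3.85%, so these shares differ by few genes.

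Genes that work with the proteasome were bound too. Of 18 further genes, among them regulators, assembly factors and ubiquitin enzymes, 13 were bound in the conservative list (72.2%). In replicates 1, 2 and 3, 11, 9 and 11 were bound. The 18 include Sem1, whose symbol lies outside the pattern that defined the members. The strongest was Ube3a, a ubiquitin ligase, with a conservative signal of 1864 and replicate signals of 464, 453 and 923. It was followed by rngo, a ubiquitin receptor of the proteasome, with 901, and eff, a ubiquitin-conjugating enzyme, with 760.5. The assembly factor Pomp had 322, and cnc, the factor known to induce proteasome genes in flies, had 263. Of 8 genes of the COP9 signalosome, a complex built like the lid, 4 were bound in the conservative list and 4 in each replicate, led by CSN8 (663), CSN6 (486) and CSN3 (238). The counts of both lists stand beside the 29.7% of all protein-coding genes.

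By chromosome, bound ubiquitous subunits were 5 of 5 on 3L, 4 of 4 on X, 3 of 4 on 2L, 7 of 10 on 2R and 5 of 9 on 3R. The share of all protein-coding genes was taken over the main chromosomes together (29.7%) and not for each. Whether these counts depart from the share of their own chromosome was therefore not tested. The 2 bound paralogues were both on 3R, which holds 5 of the 16.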

How the data were processed

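The authors deposited, for each of 3 biological replicates, peaks ranked and thresholded by IDR, and 8 lists made from the libraries together, of which the thresholded one named conservative was the main list. Coordinates are on dm6, per the labels. Names of the aligner and peak caller were not given in the sources used here. Each score deposited by the authors is IDR-scaled and at most 1000. The deposited signal is the authors' value per peak, on a scale not stated, and was ranked within a list only. The deposited summit offset was added to the peak start.

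Members were found by symbol in Ensembl BDGP6.54 (release 115), and all start sites of a gene were used. Symbols ending in R1 or R2 were counted as paralogues too. Members, gene lists and motifs were chosen with earlier results of these data known. Full values were given for the 3 strongest bound genes of each ring, the base and the lid, for ubiquitous genes without a conservative peak and for bound paralogues, and sequences by the rule stated with them. Motifs were searched on both strands of the 50 bases to either side of conservative summits and of the promoter. Python 3.11.15, pandas 2.3.3 and NumPy 2.4.6 were used. Tested on simulated data, 200 of 200 summits planted near start sites and 50 of 50 planted DREs were recovered. The labels give each biological replicate a biosample of its own, from 1 strain. Protein sequences were not used here. CSN2 matched no symbol of the annotation.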

Additional observations from a re-analysis of the deposited data

How the results depend on the processing

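The count of bound ubiquitous subunits stayed between 16 and 26 under every distance, list, start-site and assignment choice tried, with 24 reported. The share of all protein-coding genes moved with these choices, beside 29.7% reported. It ran from 19.7% with the upper 50% of peaks by signal, which gave the 16, to 32.4% in the longest series list. The 2 bound paralogues became 1 when any base of the peak had to cover a start site, 0 when each peak went to its nearest gene only (chosen after seeing the data), and 1 of 10 when symbols ending in R1 or R2 were counted as ubiquitous. The core count was 6 with the upper 50% of peaks by signal, and the lid count 3 with replicate 1 and 3 with replicate 2. In these replicates 21.1% and 22.3% of all protein-coding genes were bound. Members with a DRE were 3 in 51 bp windows and 13 with the 6-base ATCGAT. The median percentile was 60.2 in replicate 1 and 68.5 in the longest series list, beside 64.4, and the median position was -28 bp in replicate 2, beside -50.5 bp. These 11 values moved, and the 90 others stayed within 1.5 times the count or within the replicate spread. Leaving out 1 replicate gave mean bound shares of 41.7% to 49.0% for members, 56.3% to 67.2% for ubiquitous subunits, 12.5% to 12.5% for paralogues and 21.6% to 25.4% for other genes. Leaving out replicate 3, with the longest list, gave the lowest shares for members, ubiquitous subunits and other genes. No paired analysis was possible because there is 1 group. The depth is unknown, so a missing peak is not evidence that binding was absent.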
